A study of Mus musculus with 19 samples.

Results

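The lamins and their partners in the nuclear envelope were followed through ribosome footprints (RPF) and cytoplasmic RNA of brain slices from mice that lack Fmr1 (KO) and from wild-type (WT) mice. The set holds 10 genes of the 14459 in the tables: Lmna, Lmnb1, Lmnb2, Tmpo, Emd, Lbr, Sun1, Sun2, Syne1 and Syne2. The set was selected on the measured KO and WT values of Lmna, which was higher in KO in both assays, so those values are given as a description with no test. The other 9 genes were added for where their proteins reside, and are read from a test run over all genes. All animals were male C57BL/6 mice aged 28 to 35 days, and the Fmr1 KO allele had been backcrossed for over 10 generations. Each replicate pooled 8 to 10 slices, 400 µm thick, from 6 to 8 mice. The slices were kept at 30 °C for 3 to 4 h and then exposed to cycloheximide, which arrests ribosomes, at 100 µg/ml. The labels speak both of hippocampal-cortical slices and of hippocampus trimmed of CA3. The tables hold 3 KO and 4 WT libraries of each assay, the other 5 of the 19 labelled samples are not analysed here, and every mean ± SD below has n = 3 for KO and n = 4 for WT.

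The lamina is a mesh of intermediate filaments under the inner nuclear membrane. Lmna gives lamins A and C by alternative splicing, while Lmnb1 and Lmnb2 encode the B-type lamins, which stay anchored to the membrane through a farnesyl group. Proteins of the inner membrane hold chromatin and lamina together, among them emerin, lamina-associated polypeptide 2 and the lamin B receptor. SUN proteins in the inner membrane and nesprins in the outer membrane form the LINC complex, which couples the nucleus to the cytoskeleton. In brain, B-type lamins are needed for neurons to migrate, and lamin A is kept low in neurons.

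Lmna lies on chromosome 3 (GRCm38.p6, 88481148 to 88509932) and Emd on chromosome X (74254674 to 74261563). Start windows for them, from RefSeq on GRCm38.p6, are shown because these were the 2 members whose KO and WT footprints did not overlap. Both Lmna windows are at internal starts. The gene begins at position 88509932 on the minus strand, and no window at that end was available, so the Lmna letters do not describe it. Each window runs from 250 bases before to 50 bases after an annotated start, 5′ to 3′ along the gene, and capitals mark the GC box GGGCGG searched on both strands.
Lmna, chr3:88503303-88503602, minus strand: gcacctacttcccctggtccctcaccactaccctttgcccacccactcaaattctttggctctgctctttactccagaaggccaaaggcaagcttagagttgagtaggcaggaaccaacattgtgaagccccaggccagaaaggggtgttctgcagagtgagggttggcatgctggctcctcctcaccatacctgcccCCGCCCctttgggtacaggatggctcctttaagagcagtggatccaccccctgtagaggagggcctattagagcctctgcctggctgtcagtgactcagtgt
Lmna, chr3:88493263-88493562, minus strand: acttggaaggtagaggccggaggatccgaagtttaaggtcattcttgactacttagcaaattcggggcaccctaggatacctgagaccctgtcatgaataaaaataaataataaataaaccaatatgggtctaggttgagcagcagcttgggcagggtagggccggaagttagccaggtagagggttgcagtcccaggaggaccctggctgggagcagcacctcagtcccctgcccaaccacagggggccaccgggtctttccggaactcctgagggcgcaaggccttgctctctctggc
Emd, chrX:74254437-74254736, plus strand: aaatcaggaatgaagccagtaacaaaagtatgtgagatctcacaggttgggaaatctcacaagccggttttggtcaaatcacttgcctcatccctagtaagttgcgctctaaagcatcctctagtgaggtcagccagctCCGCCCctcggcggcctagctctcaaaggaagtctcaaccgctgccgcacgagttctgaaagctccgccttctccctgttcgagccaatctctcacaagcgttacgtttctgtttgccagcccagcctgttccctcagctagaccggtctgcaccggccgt
The GC box occurred 1 time in the first Lmna window, 0 times in the second and 1 time in the Emd window, and 35.7% of 32851 windows of this length held it. The first Lmna window also held TGACTCA, the letters of the AP-1 motif, which 5.20% of all windows held on either strand. It contained 1 CG pair, against 15 in the Emd window and a median of 7 over all windows. The second Lmna window contained 7. Start windows of the other members ranged from 3 CG pairs at an internal start of Syne1 to 42 at the outermost start of Lbr. These letters are a description of the windows.

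The other members are spread over the genome (GRCm38.p6). Lmnb1 lies on chromosome 18 (56707813 to 56753424), and Lmnb2 (80901363 to 80918245) and Tmpo (91147571 to 91181752) share chromosome 10 with Syne1. Lbr is on chromosome 1 (181815315 to 181842401), Sun1 on chromosome 5 (139200564 to 139249839) and Sun2 on chromosome 15 (79724068 to 79742536). The tables give 1 value per gene, so values cannot be assigned to an exon, a UTR or a splice form.

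On the per-length scale of TPM, transcript abundance scaled for length and library total, the members spanned a wide range in WT slices. Syne1, which encodes the giant nesprin-1, had the highest footprint level of the 10 at 106 ± 4.08 TPM, above 87.3% of genes. Emd, the emerin gene, followed at 89.2 ± 0.923 TPM and Tmpo, the gene of lamina-associated polypeptide 2, at 51.0 ± 0.984 TPM. Sun1 (29.2 ± 0.979 TPM), Lmna (24.3 ± 0.995 TPM) and Sun2 (17.6 ± 0.522 TPM) came next, and the WT ranges of these neighbours did not touch. Lmnb1 (8.96 ± 0.0661 TPM) lay above Lbr, the lamin B receptor gene (7.69 ± 0.516 TPM). Lbr and Lmnb2 (7.39 ± 0.314 TPM) overlapped. Syne2, the gene of nesprin-2, was lowest at 1.92 to 2.02 TPM, close to the floor near 1 TPM that the deposited values have. In RNA the order was Syne1, Emd, Sun1, Lmna, Tmpo, Sun2, Lbr, Lmnb2, Lmnb1 and Syne2. In that order Sun1 overlapped Lmna, Tmpo overlapped Sun2 and Lmnb2 overlapped Lmnb1.

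**Figure D1:**
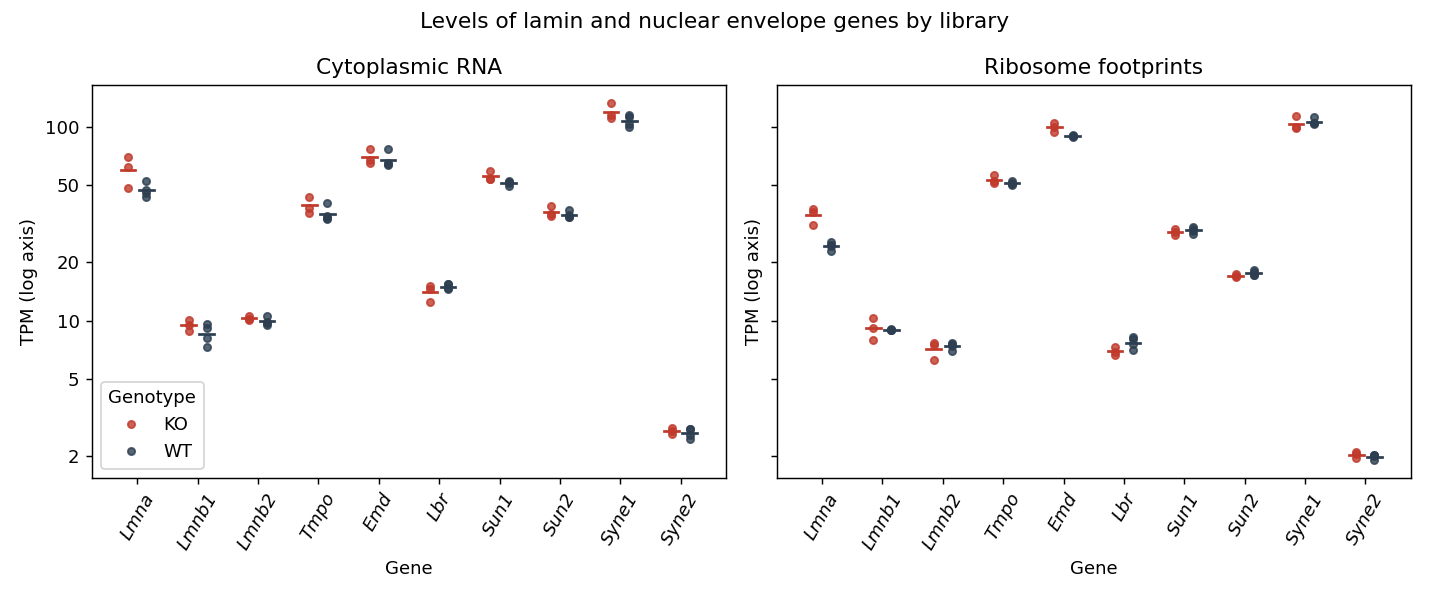
TPM of each of the 10 genes on a log axis in cytoplasmic RNA (left) and ribosome footprints (right). Points are libraries, 3 KO and 4 WT per assay, and lines are group means. Syne1 is at the top and Syne2 at the bottom in both assays, and in footprints the KO points of Lmna (31.0 to 37.4 TPM) stand above its WT points (22.9 to 25.3 TPM).

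Lmna footprints stood at 37.4, 31.0 and 36.2 TPM in the KO libraries and at 24.3, 25.3, 24.6 and 22.9 TPM in the WT libraries. The lowest KO library thus exceeded the highest WT library. The means were 34.9 ± 3.42 and 24.3 ± 0.995 TPM, a log2 fold change of 0.52 ± 0.06 (SE), which ranked at position 9 from the top of 14438 genes tested. Lmna RNA stood at 61.6, 48.0 and 69.8 TPM in KO and at 52.2, 46.9, 45.4 and 43.2 TPM in WT. Here the groups overlapped, because KO library 2 lay below WT library 1. The RNA log2 fold change was 0.36 ± 0.10, position 243 of 13877, and it was 0.22 without KO library 3 and 0.50 without KO library 2. The tables sum lamins A and C, and in such bulk tissue more or fewer cells of a type and more or less RNA per cell cannot be told apart.

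The B-type lamins showed no called difference in either assay. Lmnb1 footprints were 10.3, 7.92 and 9.14 TPM in KO and 8.92 to 9.06 TPM in WT, so that the KO libraries fell on both sides of a narrow WT group. The footprint log2 fold change was 0.02 ± 0.07 (adjusted p = 0.889, edgeR). Its RNA was 8.84 to 10.1 TPM in KO and 7.31 to 9.58 TPM in WT, with overlap, and a log2 fold change of 0.13 ± 0.10 (adjusted p = 0.580). Lmnb2 footprints were 7.68, 7.51 and 6.24 TPM in KO and 6.94 to 7.63 TPM in WT, with a log2 fold change of -0.06 ± 0.07 (adjusted p = 0.688). Its RNA was 10.3 ± 0.255 TPM in KO and 9.92 ± 0.470 TPM in WT, with a log2 fold change of 0.04 ± 0.08 (adjusted p = 0.911). Both genes were thinly covered in RNA, with Lmnb1 at as few as 50.1 estimated counts in a library, which limits what these libraries could show.

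The lamin mix can be read as the TPM of Lmna over the summed TPM of Lmnb1 and Lmnb2. In footprints this ratio was 2.09, 2.01 and 2.35 in the KO libraries and 1.39 to 1.55 in the WT libraries, and the groups did not overlap. The B-type sum itself was 16.3 ± 1.46 TPM in KO and 16.3 ± 0.251 TPM in WT. In RNA the ratio was 2.37 to 3.69 in KO and 2.23 to 2.79 in WT, and the groups overlapped. Because Lmna chose the set, these ratios carry no test.

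Among the inner membrane proteins, Emd rose in KO footprints. Its libraries read 104.8, 93.6 and 99.1 TPM in KO and 88.0, 89.6, 90.2 and 89.1 TPM in WT, so every KO library was above every WT library. The means of 99.2 ± 5.63 and 89.2 ± 0.923 TPM gave a log2 fold change of 0.14 ± 0.04 (adjusted p = 0.0245, edgeR). Emd was the only member besides Lmna with separate footprint ranges, where 15.1% of all genes had KO above WT without overlap. The Emd call was lost when KO library 1 (adjusted p = 0.0840), KO library 3 (0.0737), WT library 1 (0.0503) or WT library 4 (0.0619) was left out. Blocking on replicate number also ended it (adjusted p = 0.109). Emd RNA overlapped, at 65.0 to 76.9 TPM in KO and 63.7 to 76.3 TPM in WT, with a log2 fold change of 0.03 ± 0.08 (adjusted p = 0.879). Emd lies 5.54 Mb from Fmr1, the gene targeted in KO. Of the 42 tested genes between them, a count made after the Emd value was seen, 1 was called higher and 8 lower in KO footprints, where 8.15% and 10.4% of all genes were. Whether the position of Emd has a part in its value was not tested.

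Tmpo and Lbr, the other inner membrane genes, did not pass. Tmpo footprints were 56.4, 51.4 and 52.1 TPM in KO and 50.1 to 52.2 TPM in WT (log2 fold change 0.06 ± 0.04, adjusted p = 0.391), and only KO library 1 stood clear of WT. Tmpo RNA was 36.0 to 43.6 TPM in KO and 33.6 to 40.2 TPM in WT (0.13 ± 0.08, adjusted p = 0.441). Lbr, whose protein also reduces sterols, had footprints of 7.32, 6.86 and 6.65 TPM in KO and 7.02 to 8.19 TPM in WT. It had the most negative footprint value of the 9 tested members, -0.15 ± 0.06 (adjusted p = 0.119). Its unadjusted p was 0.0325 (edgeR), the 1 lower member by that looser rule, for which no share of all genes was worked out. Lbr RNA was 12.5 to 15.1 TPM in KO and 14.5 to 15.5 TPM in WT (-0.08 ± 0.08, adjusted p = 0.702), where KO library 2 alone lay below the WT libraries.

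In the LINC complex, the inner membrane partner Sun1 had RNA of 59.2, 53.8 and 53.7 TPM in KO and 49.3 to 52.5 TPM in WT. The KO libraries were all above WT, a pattern that 9.03% of all genes showed in RNA, yet the log2 fold change of 0.11 ± 0.06 did not pass (adjusted p = 0.284). Sun1 footprints overlapped, at 27.5 to 29.6 TPM in KO and 28.1 to 30.3 TPM in WT (-0.04 ± 0.04, adjusted p = 0.547). Sun2, its paralog, overlapped in both assays. Its RNA was 34.5 to 38.7 TPM in KO and 34.2 to 37.1 TPM in WT (0.05 ± 0.07, adjusted p = 0.755). Its footprints were 17.0 ± 0.372 TPM in KO and 17.6 ± 0.522 TPM in WT (-0.06 ± 0.04, adjusted p = 0.392). WT slices held 1.46 ± 0.0654 times as much Sun1 as Sun2 RNA per unit of length, and KO slices 1.54 ± 0.164 times.

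The nesprin genes of the outer membrane also stayed short of the threshold. Syne1 RNA was 132.7, 115.1 and 110.5 TPM in KO and 99.1 to 115.4 TPM in WT (log2 fold change 0.15 ± 0.06, adjusted p = 0.183), while its footprints were 98.3 to 113.8 TPM in KO and 103.2 to 112.1 TPM in WT (-0.04 ± 0.05, adjusted p = 0.663). KO library 1 was the highest of the 3 in both. Syne2 RNA was 2.59 to 2.81 TPM in KO and 2.46 to 2.76 TPM in WT (0.03 ± 0.06, adjusted p = 0.860). Syne2 footprints averaged 2.03 ± 0.0784 TPM in KO and lay at 1.92 to 2.02 TPM in WT (0.02 ± 0.04, adjusted p = 0.800). With the length trend of each library removed, the Syne2 footprint value became 0.13 (adjusted p = 0.0351), which passes. Syne1 footprints exceeded Syne2 footprints 53.3 ± 2.21 times in WT per unit of length. The length RSEM used can be read from the ratio of count to TPM. It was 15.3 times that of the median gene for Syne2 and 3.84 times for Syne1, although the Syne1 locus (chromosome 10, 5020192 to 5550692) spans 530501 bases and that of Syne2 (chromosome 12, 75818318 to 76110928) 292611 bases. RefSeq start windows for Syne1 end at positions 5550942, 5488564 and 5069313 on the minus strand, so the locus has starts deep inside it, and the table gives only the sum of its transcripts.

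**Figure D2:**
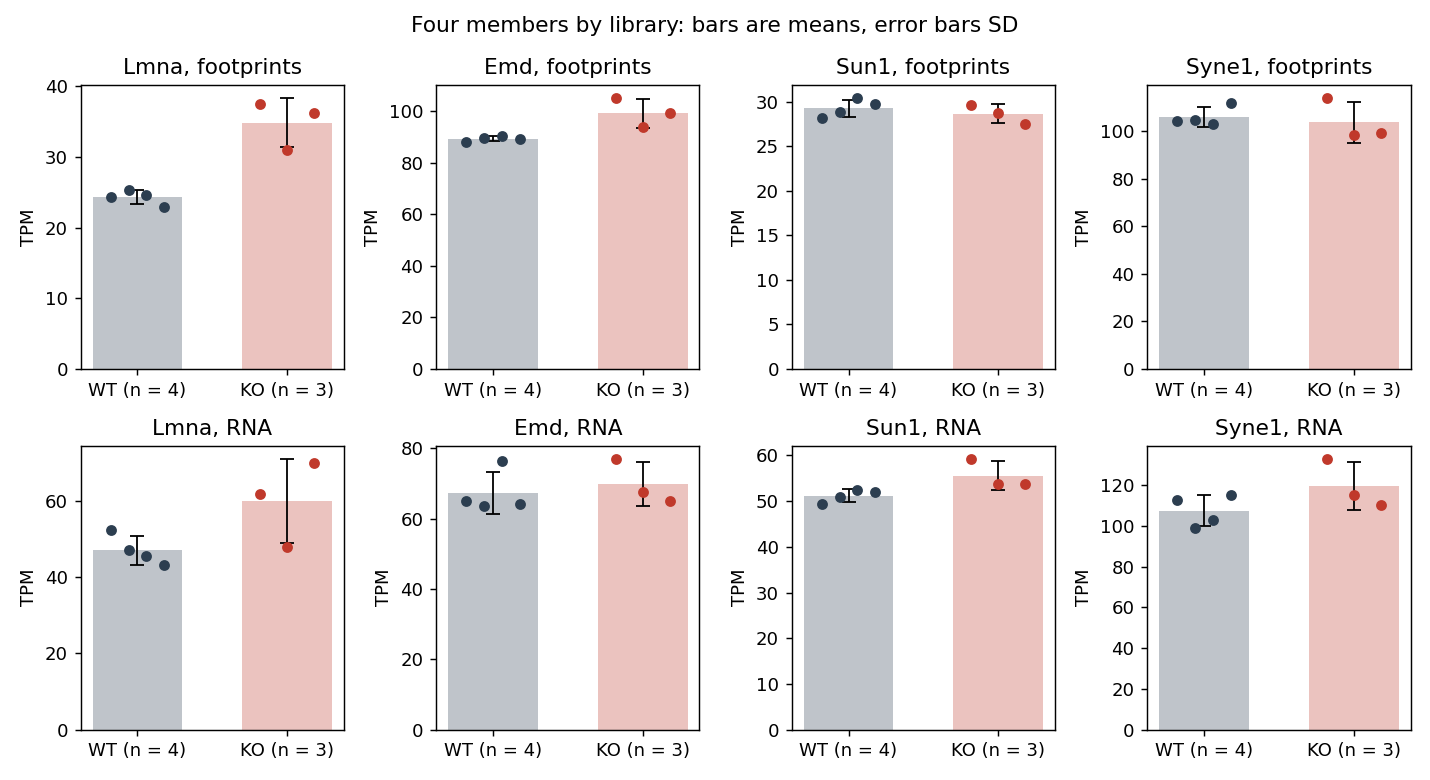
TPM of Lmna, Emd, Sun1 and Syne1 in footprints (top) and RNA (bottom), with axes from 0. Bars are means, error bars SD and points libraries (4 WT, 3 KO). Lmna and Emd footprints separate the genotypes, Emd RNA overlaps, and Sun1 RNA is higher in all KO libraries without passing the test.

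In footprints, 1 of the 9 members other than Lmna was called higher and 0 lower (edgeR, adjusted p under 0.05). Over all 14438 genes 8.15% were called higher and 10.4% lower (18.5% in all), so that count is close to the background. At an unadjusted p under 0.05 the counts were 1 and 1, and DESeq2 and limma each called 1 higher and 0 lower. The share of all genes at an unadjusted p under 0.05 was not worked out, so counts by that rule have no background here. The median log2 fold change of the 9 was -0.04, against -0.00015 over all genes. In RNA 0 of the 9 were called, where 2.11% of genes were called higher and 2.77% lower (4.89% in all). DESeq2 and limma also called 0, but DESeq2 gave Lmnb1, Lmnb2 and Lbr no adjusted p in RNA and so could not call them. By edgeR 1 member, Syne1, had an unadjusted p under 0.05. The median in RNA was 0.05, against -0.0049 over all genes.

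**Figure D3:**
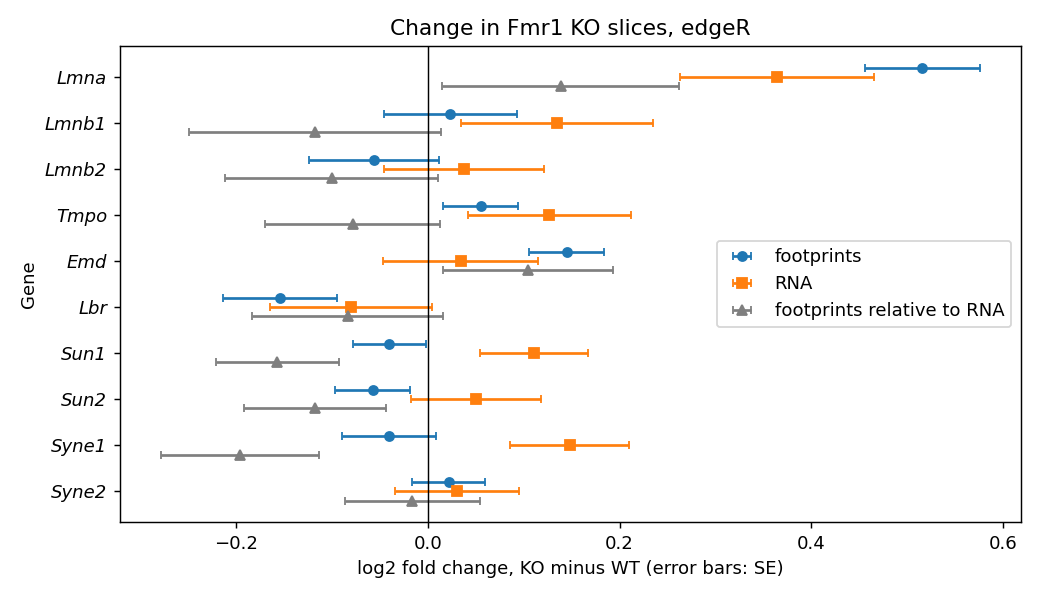
Log2 fold change, KO minus WT, of each gene in footprints, in RNA and in footprints relative to RNA, from edgeR, with SE as error bars. Lmna is farthest to the right in footprints (0.52) and RNA (0.36), followed in footprints by Emd (0.14), and the values for Sun1, Sun2 and Syne1 relative to RNA lie left of 0.

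The ratio of footprint TPM to RNA TPM gives the ribosome load of a message relative to other messages. RNA and footprints came from the same lysates, and libraries with the same replicate number were set against each other. Deviations from the group means correlated weakly between such libraries, at -0.05 to 0.20 in KO and 0.006 to 0.11 in WT. For libraries of different numbers they correlated at -0.17 to 0.11 in KO and -0.11 to 0.06 in WT. The ratios per replicate thus rest on the numbering. In WT the ratio of Tmpo was 1.44 ± 0.118 and that of Emd 1.33 ± 0.103, in the percentiles 82.8 and 80.1 among all genes, whose median ratio was 0.780. Lmnb1 (1.06 ± 0.127) and Syne1 (0.989 ± 0.0553) were also above the median. Syne2 (0.757 ± 0.0437) and Lmnb2 (0.745 ± 0.0338) lay near it. Sun1 (0.571 ± 0.00508), Lmna (0.519 ± 0.0356), Lbr (0.514 ± 0.0460) and Sun2 (0.501 ± 0.0284) were in the percentiles 25.6 to 31.8. The WT ratios of Lmna (0.466 to 0.542) and Lmnb1 (0.931 to 1.22) did not overlap.

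Between genotypes, the Lmna ratio was 0.607, 0.646 and 0.518 in KO and 0.466, 0.539, 0.542 and 0.530 in WT. KO library 3, with the most Lmna RNA, had the lowest KO ratio and lay inside the WT range. The interaction of assay and genotype put the Lmna value at 0.14 ± 0.12 on the log2 scale. It was 0.26 without KO replicate 3, and 0.09 without KO replicate 1 or KO replicate 2 and 0.10 without WT replicate 1. The Sun1 ratio was 0.501, 0.534 and 0.511 in KO and 0.566 to 0.578 in WT, and the Syne1 ratio 0.858, 0.853 and 0.897 in KO and 0.926 to 1.06 in WT. All KO ratios of these 2 LINC genes were below all WT ratios, as for 7.01% of all genes, while 6.58% had all KO ratios above. The differences did not pass in the test over all 14435 genes: -0.16 ± 0.06 for Sun1 (adjusted p = 0.352, edgeR) and -0.20 ± 0.08 for Syne1 (adjusted p = 0.369). Emd was at 0.10 ± 0.09 (adjusted p = 0.751), so a difference between its footprint and RNA changes was not shown. The other members had overlapping ratios, among them Tmpo with a KO mean of 1.36 ± 0.0785, Lmnb1 with 0.968 ± 0.162, Lmnb2 with 0.694 ± 0.0669 and Sun2 with 0.471 ± 0.0340. The median value of the 9 tested members was -0.10, against -0.01 over all genes. In all, 0 of the 9 members were called, against 0.0139% of genes called higher and 0.0208% lower (0.0346% in all). At an unadjusted p under 0.05, 2 members were lower, with no share of all genes worked out for that rule. DESeq2 and limma called 0 members.

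**Figure D4:**
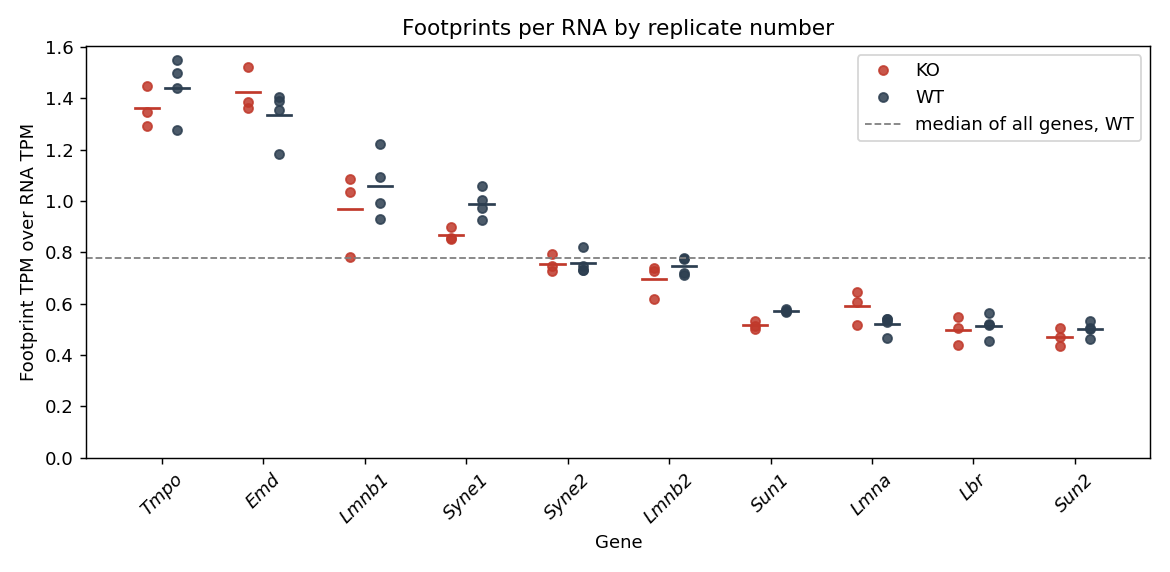
Footprint TPM over RNA TPM for each gene, ordered by the WT mean, with points for the 3 KO and 4 WT replicate numbers and lines for means. The dashed line is the WT median of all genes (0.780). Tmpo and Emd are above 1, Lbr and Sun2 are near 0.5, and the KO points of Sun1 and Syne1 lie below their WT points.

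KO library 1 held the highest footprint TPM of the 3 for 10 of the 10 genes, while it was the highest for 48.4% of all genes. In RNA it was the highest for 6 of the 10, against 42.2% of all genes. Between the other KO footprint libraries the members were split, with Lmna, Lmnb1, Tmpo, Emd, Sun2 and Syne1 higher in library 3 and Lmnb2, Lbr, Sun1 and Syne2 higher in library 2. In footprints the spread among KO libraries was largest for Lmnb1, with a coefficient of variation of 12.9%, against 0.738% in WT. The WT libraries held 234 to 336 estimated Lmnb1 counts, at which random sampling alone gives a wider spread than 0.738%. The WT value may thus understate the spread. With single libraries left out, KO library 1 included, the footprint log2 fold change of Lmna ran from 0.47 to 0.59.

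Other genes of the envelope were read from lists of lamin partners and of nuclear pore genes, beside the shares of all genes called, which were 8.15% higher and 10.4% lower in footprints and 2.11% and 2.77% in RNA. Of 27 listed genes that process lamins or work with LEM, LINC or torsin proteins, 22 were tested. In footprints 2 rose, 2 fell and 18 did not pass, which is near the 18.5% of all genes called in either direction. In RNA 0 rose and 2 fell (1 and 4 at an unadjusted p under 0.05, a rule with no share of all genes worked out). The RNA count of lower genes was 1 with DESeq2, 0 with limma, 1 without KO library 3 and 0 without any other single library. Over all genes the 385 lower in RNA became 289 with DESeq2, 244 with limma and 122 to 520 with single libraries left out. Zmpste24, the protease that matures prelamin A, fell in footprints from 41.1 ± 0.388 to 36.2 ± 0.445 TPM, which is -0.19 ± 0.04 on the log2 scale (adjusted p = 0.00513, edgeR). Its RNA was at 0.11 ± 0.09 (adjusted p = 0.562), and the difference between the assays, -0.31 ± 0.10, did not pass (adjusted p = 0.204). Narf, whose protein binds prenylated prelamin A, rose by 0.16 ± 0.04 (adjusted p = 0.0151), from 43.3 ± 0.569 to 48.5 ± 1.64 TPM. Fntb, the beta subunit of the farnesyltransferase that lipidates lamins, rose by 0.26 ± 0.07 (adjusted p = 0.0295), and the inner membrane protein gene Tmem43 was at -0.18 ± 0.05 (adjusted p = 0.0309). Calls depended on single libraries. Fntb missed the threshold when 1 of 4 libraries (KO 1, KO 2, WT 1 and WT 2) was dropped, with an adjusted p of at most 0.115. Tmem43 missed it for each of 5 (KO 1, KO 3, WT 2, WT 3 and WT 4), at most 0.116, and with limma (0.0524). Narf missed it without KO 2 (0.0555). Under the replicate block Fntb (0.0853), Tmem43 (0.09995) and Narf (0.0848) also missed it, while the count of higher genes became 0 and that of lower genes 1. Over all genes the block left 429 higher and 875 lower in footprints. Zmpste24 passed in all footprint alternatives tried.

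Of 31 nuclear pore genes 30 were tested. In footprints 4 rose, 2 fell and 24 did not pass, where 18.5% of all genes were called. In RNA 4 rose and 2 fell, where 4.89% of all genes were called. The RNA counts were 2 and 1 with DESeq2 and 1 and 0 with limma, and ran from 1 to 3 and from 0 to 1 with each of the 7 libraries left out. Over all genes the RNA calls of 293 higher and 385 lower became 247 and 289 with DESeq2 and 168 and 244 with limma. With single libraries left out the all-gene calls ran from 94 to 352 and from 122 to 520. The median log2 fold change of the pore genes was 0.04 in footprints and 0.07 in RNA, where all genes had -0.00015 and -0.0049. Nup35, a scaffold nucleoporin, rose in footprints from 32.4 ± 0.424 to 38.2 ± 0.139 TPM (0.23 ± 0.04, adjusted p = 0.00238, edgeR), with RNA at 0.07 ± 0.10 (adjusted p = 0.774). Sec13, which serves the pore and the COPII coat, rose by 0.25 ± 0.05 in footprints (adjusted p = 0.00458), and its RNA rose by 0.29 ± 0.07 (adjusted p = 0.0291). Nup50 of the nuclear basket rose by 0.18 ± 0.04 in footprints (adjusted p = 0.00912) and by 0.32 ± 0.07 in RNA (adjusted p = 0.0257), and the mRNA export factor gene Rae1 by 0.18 ± 0.04 in footprints (adjusted p = 0.0140). The RNA call of Sec13 was lost for each of 5 dropped libraries (KO 1, KO 2, WT 1, WT 2 and WT 4, adjusted p at most 0.0926) and that of Nup50 for each of 4 (KO 1, KO 3, WT 3 and WT 4, at most 0.0708). Both RNA calls also missed the threshold with limma (0.0526 for Sec13 and 0.0516 for Nup50) and with the replicate block (0.121 and 0.119), and that of Nup50 with DESeq2 (0.0690). With the replicate block Nup50 (0.0819) and Rae1 (0.0698) missed the threshold in footprints, and the counts were 2 higher and 1 lower. Over all genes the block left 429 higher and 875 lower. The footprint count of lower pore genes was 0 with limma and when KO 1, KO 3 or WT 2 was dropped. Of all genes 1494 were lower with limma, and 1051, 1055 and 1122 with those libraries dropped. After removal of the length trend 7 pore genes were higher and 0 lower in footprints, where 1279 and 1439 of all genes were. In footprints relative to RNA, edgeR, DESeq2 and limma called 0 genes of either list. There edgeR called 0.0346% of all genes, so a count of 0 says little about these lists. At an unadjusted p under 0.05 there were 4 higher and 1 lower among the lamin partners and 0 higher and 2 lower among the pore genes. The share of all genes at that rule was not worked out, so no excess is read from these counts.

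The genes whose profile over the 14 libraries was most like that of Lmna were sought among 10342 genes with a mean of at least 5 TPM in both assays. Likeness was the root mean square difference of log2(TPM + 1) after each assay's WT mean was subtracted. Among the closest were the interferon regulatory factor gene Irf1 (0.109), the cystathionine beta-synthase gene Cbs (0.110), the RNA-binding protein gene Ewsr1 (0.122) and the splicing factor gene Rbm22 (0.122). The median gene was at 0.314. Irf1 had log2 fold changes of 0.36 in footprints and 0.32 in RNA, and Cbs of 0.38 and 0.34, beside 0.52 and 0.36 for Lmna. Of the envelope members Emd was nearest, at 0.253 and position 1690, and Syne2 was too low to enter. The measure is a description, and it picks genes that were higher in KO.

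Library totals were 4.97 M to 9.96 M estimated counts in RNA and 15.6 M to 22.7 M in footprints. Fmr1 footprints were 4.59 to 5.03 TPM in KO and 42.7 to 46.3 TPM in WT, and Fmr1 RNA was 3.90 to 5.31 TPM in KO and 16.0 to 19.3 TPM in WT, lower in KO as labelled but above the floor. Markers of the labelled tissue were present, with 10 pyramidal neuron markers summing to 11923 to 12378 TPM in KO footprints and 12317 to 12384 TPM in WT, and since the values have a floor near 1 TPM, no listed gene could read 0. Counts of markers called in footprints stand against 8.15% of all genes called higher and 10.4% called lower. Fibroblast and meningeal markers, where 7 of 9 fell and 0 rose in footprints, summed to 266 to 271 TPM in KO and 338 to 380.4 TPM in WT. Microglia markers (9 of 10 fell) summed to 542 to 580.03 and 649 to 678 TPM. Endothelial markers (3 of 10 fell) summed to 43.7 to 55.6 and 45.2 to 63.2 TPM, and mural markers (3 of 10 fell) to 199 to 215 and 210.5 to 238 TPM. Oligodendrocyte markers had 6 of 10 lower and 1 higher, interneuron markers 4 lower and 1 higher, astrocyte markers 2 lower and 2 higher, and pyramidal neuron markers 1 lower and 2 higher. Thalamic markers (4 of 9 rose) summed to 213 to 228 TPM in KO and 182 to 221 TPM in WT, and choroid plexus and ependymal markers (1 of the 6 in the table rose and 1 fell, with 10 listed) to 19.5 to 28.7 and 17.7 to 18.6 TPM. In RNA 2.11% of all genes were called higher and 2.77% lower. There 7 of 10 microglia markers fell (sums 869 to 878 TPM in KO, 1017 to 1053 in WT). Of fibroblast and meningeal markers 2 of 9 fell (109 to 121, 136 to 156). Of 10 interneuron markers 1 fell (2363 to 2565.3, 2566.8 to 2907). Thalamic markers had 3 of 9 higher (272 to 286, 208 to 254). Choroid plexus and ependymal markers had 1 of 3 tested higher (34.0 to 37.5, 30.9 to 33.7). RNA sums of the other marker lists overlapped between genotypes. Lmna is expressed strongly in vascular and connective tissue cells. The part of any of these cell types in the values of Lmna and Emd was not tested.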

How the data were processed

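Cytoplasmic RNA-seq and ribosome footprint libraries of KO and WT slices were used as tables deposited by the authors: estimated counts from RSEM and TPM, for 14459 genes and 14 libraries. Per the submitters' processing notes, cutadapt 1.7.1, Trimmomatic 0.32, Bowtie2 2.1.0, TopHat2 2.0.9, SAMtools 0.0.19, bedtools and RSEM 1.2.11 were used with mm10. The deposited TPM values have a lowest value of 0.880 to 1.000 in each library, and genes with a mean of 20 to 50 estimated counts had a variance over mean of 0.158 to 0.406, below the Poisson value. The sources used here do not give the step that did this, and p-values may be too small.

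Estimated counts were rounded and tested with edgeR 4.0.16 in R 4.3.3 (filterByExpr with a minimum count of 10, TMM, robust quasi-likelihood F-test, Benjamini-Hochberg over all genes tested, threshold 0.05). SEs were derived from the size of the log2 fold change and its F statistic (fold change divided by the root of F). Footprints relative to RNA were tested as an assay-by-genotype interaction in 1 model of the 14 libraries, with no term for the shared lysate. All adjusted p-values are edgeR's unless another tool is named. Scripts were tested on simulated data. Replicates are pools of animals. Numbers shared by KO and WT libraries were not used as pairs in the chosen fits, and whether they mark batches is not known. In the footprint and RNA fits the replicate block gave the WT library with no KO library of its number a term of its own. That library then added nothing to the KO contrast. RNA and footprints share lysates per the labels' protocols.

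Alternatives were DESeq2 1.42.0, limma 3.58.1 on log2(TPM + 1) and log2(TPM + 0.1), 2 other scalings, no filter, a minimum count of 50, a length trend removed, a replicate block and each library left out. The members, the lists of 27 and 31 genes and the 10 marker lists were chosen with earlier results of these data known. All members are named. Of each of the 2 other lists the 4 called genes with the smallest p in footprints are named, and 4 of the 5 genes most like Lmna, since 1 is not reported here. Coordinates and start windows are from RefSeq, GRCm38.p6, whose symbols matched 13729 genes directly, all members among them. Start windows matched for 9 of the 10 members, all except Lmnb1.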

Additional observations from a re-analysis of the deposited data

Results flagged for a closer look

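Of 30 groups of 4 WT values examined, the level of each member in each assay and its ratio of footprints to RNA, 4 had a library far from the other 3, and chance alone flags about 1 in 20 such groups. Emd RNA was 76.3 TPM in WT library 3 and 63.7 to 65.0 TPM in the others, and without that library its RNA log2 fold change was 0.12. The Lmna ratio of footprints to RNA was 0.466 in WT replicate 1 and 0.530 to 0.542 in the others. Lmnb1 footprints were 9.06 TPM in WT library 1 and 8.92 to 8.93 TPM in the others, a gap of little size because the group is narrow. Syne2 footprints were 1.92 TPM in WT library 2 and 2.01 to 2.02 TPM in the others, close to the floor of the values.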

How the results depend on the processing

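Over 16 alternatives per result, the count of the 9 tested members called higher in footprints was 1 in the chosen analysis, 2 with the length trend removed (Emd and Syne2), 0 with the replicate block and 0 to 1 with single libraries left out. The cause was not tested. The counts in RNA and relative to RNA stayed at 0 under the alternatives run, as did the count lower in footprints. For RNA, DESeq2 gave Lmnb1, Lmnb2 and Lbr no adjusted p, so its 0 does not cover them. Lmna ran from 0.47 to 0.59 in footprints and from 0.22 to 0.50 in RNA. The WT percentiles of the ratio moved by less than the replicate SD. Over all genes, footprint calls of 1177 higher and 1500 lower became 429 and 875 with the block and 1279 and 1439 with the length trend removed. With libraries left out they ran from 719 to 1086 and from 1051 to 1303. RNA calls of 293 and 385 became 73 and 131 with the block, 168 and 244 with limma on log2(TPM + 1), 174 and 257 on log2(TPM + 0.1), and 94 to 352 and 122 to 520 with libraries left out. Interaction calls of 2 and 3 became 52 and 38 with DESeq2, 39 and 31 or 40 and 30 with limma, 13 and 9 with the length trend removed, and 1 to 57 and 1 to 11 with replicates left out. As a hint on pairing, KO and WT libraries of the same number had deviations that correlated at -0.34 to -0.06 in RNA and -0.47 to 0.04 in footprints. Those of different numbers correlated at -0.40 to 0.35 in RNA and -0.36 to 0.42 in footprints, which does not settle whether the numbers mark batches. Depth limits Lmnb1 and Lmnb2 in RNA most. Syne2 is near the floor in TPM, although its footprint libraries held 605 to 918 estimated counts in WT. An effect of the floor on its values was not tested.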
